A study of Mus musculus with 4 samples.

Results

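The cells described here are the Ckm-positive cells of the study: cells chosen by their measured values of Ckm (at least 6) and Car3 (below 8) on the deposited log2(CPM + 1) scale. CPM is a gene's UMIs (unique molecular identifiers, each standing for 1 captured RNA molecule) scaled to the same total in every cell. They numbered 1455 of 5913 cells, or 24.6%. Ckm encodes the muscle creatine kinase and Car3 a muscle carbonic anhydrase, so the rule keeps differentiated muscle cells and leaves aside those with high Car3. Both genes chose the cells, and every other gene was read from the same cells, so values against other cells are descriptions and no test was made on them. All cells came from cultured muscle stem cells (satellite cells) of wild-type C57BL/6 mice, grown for 7 days in DMEM with fetal bovine serum and antibiotics on polydimethylsiloxane. Cells of young and of aged mice were each placed on a soft (12 kPa) and a stiff (29 kPa) substrate, which gives 4 groups with 1 droplet-based 3′ library each. The sources used here give neither the mice's age in months nor the number of animals behind a library. No library has a replicate, so differences between libraries carry counting error only and no p-value. Values below are mean CPM over cells and always stand in the order young soft, young stiff, aged soft, aged stiff. Differences between groups given without CPM, percent or the word times are log2 ratios.

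Satellite cells that leave the cell cycle express Myog, fuse through the membrane proteins Mymk and Mymx, and build sarcomeres from actin, myosin and troponin. Creatine kinase moves phosphate between ATP and creatine and so buffers energy in muscle: Ckm is the muscle form, Ckb the brain form that early muscle cells also make, and Ckmt2 the sarcomeric mitochondrial form. Creatine itself is made by Gatm and then Gamt, or taken up by the transporter Slc6a8.

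The promoters of Ckm and of 3 creatine genes that were higher in these cells than in all others are shown first, since the results below turn on these genes. They are the RefSeq sequences (GRCm38.p6) of the 250 bases before the gene start, 5′ to 3′ on the gene's strand. Capitals mark matches, on both strands, to the E-box CANNTG bound by myogenic factors, to the MEF2 site (named only, since its letters are degenerate) and to the CArG box bound by serum response factor. Of 6 creatine genes 5 matched an entry.
Ckm, chr7:19410844-19411093, plus strand: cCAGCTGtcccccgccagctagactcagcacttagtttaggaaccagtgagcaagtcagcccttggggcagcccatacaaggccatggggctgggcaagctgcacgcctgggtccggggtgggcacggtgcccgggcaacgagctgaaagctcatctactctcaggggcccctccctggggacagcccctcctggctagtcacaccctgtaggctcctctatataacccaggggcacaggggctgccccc
Ckb, chr12:111672339-111672588, minus strand: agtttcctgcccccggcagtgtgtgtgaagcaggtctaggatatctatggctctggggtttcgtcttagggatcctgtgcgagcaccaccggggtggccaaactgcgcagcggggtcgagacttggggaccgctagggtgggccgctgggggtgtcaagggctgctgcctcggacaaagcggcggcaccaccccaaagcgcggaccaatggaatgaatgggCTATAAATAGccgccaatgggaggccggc
Gatm, chr2:122611278-122611527, minus strand: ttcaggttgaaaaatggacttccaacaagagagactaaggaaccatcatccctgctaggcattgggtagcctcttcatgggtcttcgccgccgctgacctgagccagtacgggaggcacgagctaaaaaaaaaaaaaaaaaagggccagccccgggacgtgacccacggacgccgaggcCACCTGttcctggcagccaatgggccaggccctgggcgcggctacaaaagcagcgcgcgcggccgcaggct
Gamt, chr10:80261013-80261262, minus strand: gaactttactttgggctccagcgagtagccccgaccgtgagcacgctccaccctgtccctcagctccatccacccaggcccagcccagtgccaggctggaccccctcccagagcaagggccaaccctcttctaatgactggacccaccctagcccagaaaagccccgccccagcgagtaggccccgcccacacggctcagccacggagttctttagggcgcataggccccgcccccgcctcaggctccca
No motif was found in all 4 windows. Ckm held 1 E-box, CAGCTG, at 249 to 244 bases before the start, and Gatm held 1, CACCTG, at 71 to 66 bases. Ckb held 1 MEF2 match, CTATAAATAG, at 29 to 20 bases, which overlaps a TATAAA at 28 to 23 bases. Gamt held none of them. The window of Ckmt2, which was not higher in these cells and is not shown, held 4 E-boxes, CAGCTG and CACCTG among them. Over 27025 promoters of the same length, 66.0% held an E-box, 12.8% CAGCTG, 17.1% CACCTG, 3.01% a MEF2 match, 13% TATAAA and 1.40% a CArG box, so an E-box match is common.

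Ckm-positive cells were more frequent in the aged libraries. Their share was 11.0% in the young soft library (150 of 1360 cells; exact 95% Clopper-Pearson limits 9.41% and 12.8%) and 10.2% in the young stiff one (151 of 1479; 8.71% and 11.9%). In the aged soft library it was 35.1% (468 of 1333; 32.5% and 37.7%) and in the aged stiff one 39.5% (686 of 1738; 37.2% and 41.8%). The aged intervals lie apart from the young ones, and the soft and stiff intervals overlap within each age. Intervals cover counting error only. Because a deeper cell shows a low gene more easily, cells were also thinned to 15000 UMIs each, leaving out 29, 70, 48 and 23 shallower cells, and 13.3%, 12.3%, 39.9% and 43.6% then passed. At that depth 1 Ckm UMI is enough to pass.

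The same order held among cells with high skeletal actin. Of the cells with Acta1 of at least 13 and Car3 below 8 (351, 404, 774 and 1080 cells), 39.9%, 36.1%, 58.3% and 61.8% were Ckm-positive, and 46.0%, 42.3%, 63.4% and 66.0% after thinning. The Acta1 limit was chosen after the values were seen. Among Car3-high cells (279, 316, 88 and 165), which the rule leaves out, 20.8%, 22.5%, 40.9% and 39.4% reached the Ckm limit.

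Free RNA in the droplets can give a Ckm UMI to a cell that does not express it, so cycling cells served as a background. Of the 257, 264, 74 and 76 cells with Top2a of at least 8, a gene of dividing cells, 3.11%, 0.379%, 5.41% and 5.26% had a Ckm UMI, at median depths of 37341, 31204, 30276 and 32499 UMIs. Over all cells the shares were 27.5%, 24.7%, 52.1% and 57.3%, at median depths of 35606, 28611, 33315 and 37081 UMIs. Thinned, they were 1.17%, 0% (of 258 cells, which allows a share of up to 1.16%), 4.05% and 2.63% of the cycling cells and 19.8%, 18.8%, 43.5% and 48.5% of all cells. The background is therefore far below the share in all cells in each library.

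**Figure D1:**
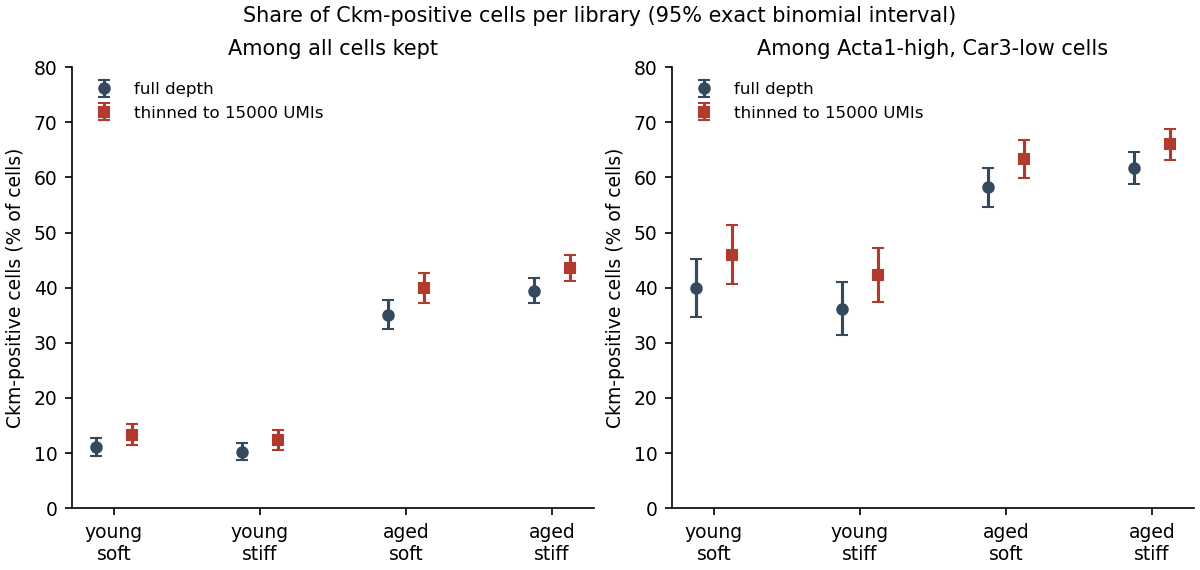
Share of Ckm-positive cells (percent, y axis) in the 4 libraries (x axis), over all cells and among Acta1-high cells with Car3 below 8, before and after thinning to 15000 UMIs, with exact 95% binomial intervals. Over all cells the young libraries lie at 11.0% and 10.2% and the aged ones at 35.1% and 39.5%.

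The cells were proposed as late myocytes on the markers Ckm, Casq1, Tcap, Ndrg4 and Hspb7. The mean levels of Casq1, Ndrg4 and Hspb7 go against "late". Ckm averaged 287, 312, 359.5 and 399 CPM in them and 17.1, 21.3, 20.7 and 31.8 CPM in all other cells, which the rule fixes. Tcap (telethonin, a Z-disc cap of titin) averaged 355, 420.0, 739 and 837 CPM against 295, 348, 571 and 679 CPM in the others, a log2 ratio of 0.27 to 0.37. Casq1 (calsequestrin, the calcium store of the sarcoplasmic reticulum) averaged 156, 278, 559 and 671 CPM against 242, 307, 514 and 651 CPM, so it was lower in the young libraries and close to the others in the aged ones. Ndrg4 averaged 31.6, 30.8, 112 and 97.5 CPM against 29.6, 31.5, 99.9 and 100.2 CPM, and Hspb7, a small heat shock protein, 91.5, 98.9, 202 and 224 CPM against 90.8, 124, 188 and 234 CPM.

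These means hide a difference in how the genes were spread. At 15000 UMIs, Casq1 was seen in 42.6%, 41.9%, 69.7% and 80.8% of Ckm-positive cells and in 30.3%, 36.2%, 46.5% and 55.1% of all others. In the Car3-high cells the shares were 72.8%, 76.8%, 81.0% and 87.2%, and in cells with Acta1 of at least 13 but Ckm below the limit 62.7%, 71.6%, 83.4% and 87.2%. Tcap was seen in 68.9%, 72.3%, 87.5% and 91.5% of Ckm-positive cells and in 37.2%, 41.2%, 51.5% and 59.0% of all others. For Hspb7 these shares were 52.7%, 51.4%, 80.2% and 83.3% against 31.8%, 37.6%, 48.5% and 56.3%. For Ndrg4 they were 29.7%, 22.3%, 62.6% and 61.4% against 23.0%, 24.3%, 45.1% and 49.8%, lower in the young stiff library. By mean level, Casq1 (651, 796, 1166 and 1226 CPM), Tcap (741, 829, 1091 and 1204 CPM), Ndrg4 and Hspb7 were highest in the Car3-high cells of every library. By share of cells at 15000 UMIs this order did not hold in the aged libraries, where Tcap was seen in 87.5% and 91.5% of Ckm-positive, 89.97% and 92.0% of Acta1-high and 89.3% and 90.2% of Car3-high cells. Since none of Casq1, Ndrg4 and Hspb7 had a higher mean than in all other cells in every library, the cells are called Ckm-positive below.

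**Figure D2:**
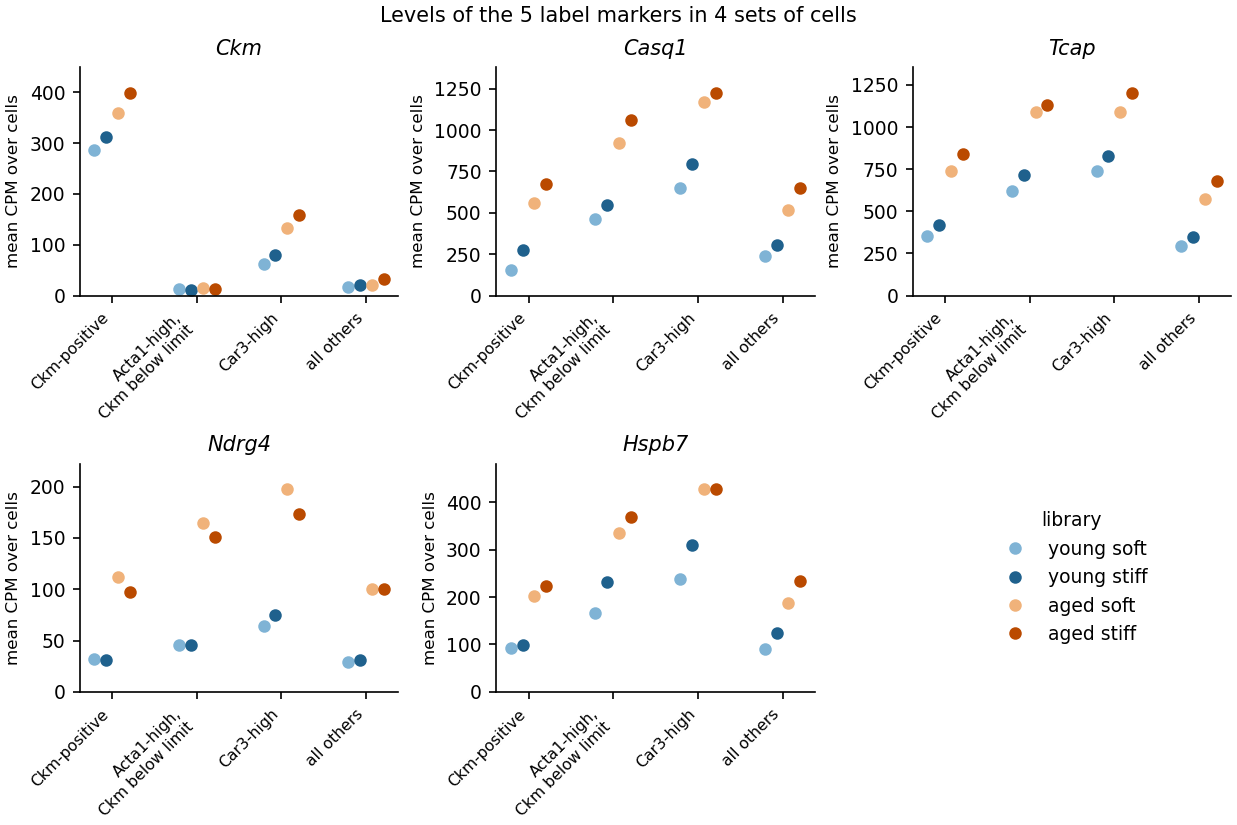
Mean CPM over cells (y axes) of the marker genes in Ckm-positive cells and the comparison sets of cells (x axis), 1 point per library. Casq1, Tcap, Ndrg4 and Hspb7 lie higher in the Car3-high than in the Ckm-positive cells of every library.

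Ckm-positive cells had more UMIs than the rest. Their median UMI count was 41185, 32765, 38554 and 42162.5 against 34387, 28150, 29203 and 32484.5 in the others, and their median mitochondrial share 6.02%, 6.04%, 5.76% and 6.18% against 5.20%, 5.39%, 5.58% and 5.82%. Cells below 1% mitochondrial counts numbered 1, 1, 26 and 37 among them, and 1 barcode of the series was shared by 2 libraries. Summed over their marker lists, cycling genes reached 15.1 to 30.8 CPM (218 to 628 in the others), progenitor genes 54.9 to 64.7 CPM (194 to 303) and fibroblast genes 9.58 to 20.4 CPM (130 to 267), with Lum at 0 in all 4 libraries. Smooth muscle and pericyte markers reached at most 1.08 CPM and the 2 measured endothelial markers at most 0.249 CPM, and Schwann cell markers stood at 1.23 to 2.04 CPM (1.43 to 2.72 in the others). Immune markers were at 0.608, 0.720, 5.18 and 5.98 CPM, higher in the aged libraries (1.45 to 7.27 in the others). The part of these cells in the results was not tested.

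Against all other cells, 29 genes were at least 2 times higher in the Ckm-positive cells of every library (0.528% of 5489 measured) and 334 at least 2 times lower (6.08%). Scaling by the median of ratios instead of CPM shifts all ratios by 0.20 to 0.22 and gives 71 higher and 273 lower genes.

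Itgb1bp2 (melusin, a muscle integrin partner) averaged 149, 175, 204 and 225 CPM against 44.3, 50.1, 49.4 and 61.1 CPM in the others. Fbxl22, an F-box protein of the sarcomere, averaged 88.4, 94.3, 98.9 and 103 CPM against 23.6, 23.2, 28.8 and 29.5 CPM. The Ckm-positive values lie above the others' in each library for both genes, by a log2 ratio of 1.62 to 1.94. Dhrs7c (a reductase of the sarcoplasmic reticulum) had ratios of 1.58 to 1.84 and Srpk3 (a muscle kinase of splicing factors) of 1.39 to 1.53. The most abundant of the leading genes was Sct, the hormone secretin, at 1891, 1863, 1109 and 812 CPM against 496, 506, 293 and 312 CPM. Myh8, the perinatal myosin heavy chain, stood at 883, 823, 635 and 706 CPM against 312, 319, 196 and 272 CPM. Bex1, whose sequence is partly shared with a related gene, Pycard and Maged2 completed the list with Ckb and with Meg3. Meg3, an imprinted long RNA, was seen in only 15.3%, 13.2%, 6.41% and 4.96% of the cells, and its mean of 146, 105, 48.4 and 28.9 CPM rests on few cells.

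Sarcomere genes were higher as a group. Over all 5489 genes measured, 20.3% were higher and 58.4% lower in every library. All 14 measured adult fast sarcomere genes were higher in all 4 libraries, 3 of them by 2 times: Acta1 (17825, 18286, 19219 and 20078 CPM against 6107, 6687, 7785 and 9044), Mylpf and Tnnc2. The list's median log2 ratio was 0.77 to 1.01, against -0.19 to -0.16 over all genes. Of 12 developmental, slow and cardiac sarcomere genes 11 were higher, Myh8 and the cardiac actin Actc1 by 2 times. Among 27 Z-disc and M-band genes 26 were higher and none reached 2 times. For the sarcoplasmic reticulum and triad 23 of 24 genes were higher and Hrc, a calcium-binding protein of the reticulum lumen, reached 2 times with ratios of 1.10 to 1.59.

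The fusion and the endplate lists had smaller medians, 0.07 to 0.36 and 0.33 to 0.57. Mymx averaged 131, 129.7, 238 and 216 CPM against 45.6, 48.1, 95.6 and 96 CPM, and was the 1 gene of 14 in its list to reach 2 times, while Cd9, a membrane tetraspanin, was lower by 1.67 to 2.31 on the log2 scale. Mymk ratios were 0.87 to 1.48. Of 8 acetylcholine receptor and endplate genes 7 were higher (20.3% of all genes were), Chrng, the fetal receptor subunit, by 0.82 to 1.18. Of 11 myogenic factor genes 7 were higher and Myf5, a factor of undifferentiated cells, was lower by at least 2 times, and Myog ratios ran from 0.16 to 1.23.

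Genes of dividing and progenitor cells were lower. All 14 measured G2 and M phase genes were lower by 2 times, as were 7 of 11 S phase genes, against 6.08% of all genes measured. Top2a averaged 1.86, 1.90, 4.82 and 1.05 CPM against 366, 365, 145 and 122 CPM in the others. Stmn1, a tubulin-binding protein of dividing cells, averaged 13.8, 16.8, 13 and 8.61 CPM against 414, 404, 196 and 171 CPM. Of 14 progenitor and Notch genes 9 were lower by 2 times, among them Pax7, the satellite cell factor, by 2.70 to 3.19. Not every gene of the cell cycle was near 0: Rrm2, a ribonucleotide reductase subunit, stood at 43.3, 33.7, 46.9 and 34.4 CPM against 166, 147, 91.6 and 92.4 CPM.

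Matrix genes were the other low group. Of 18 YAP target and matrix genes 13 were lower by 2 times, against 6.08% of all genes measured. Bgn (biglycan) stood at 56.2, 57.8, 41.5 and 36.4 CPM against 737, 794, 513 and 430.2 CPM. Islr, a protein of stromal cells, stood at 9.85, 9.08, 6.62 and 4.97 CPM against 393, 354, 289.5 and 243 CPM. Mgp, a matrix protein that inhibits calcification, stood at 21.3, 9.36, 11.7 and 18.4 CPM against 1157, 1035, 540.3 and 475 CPM. Every library shows these gaps. Among the CDK inhibitors Cdkn1a averaged 2387, 2455, 2213 and 2031 CPM, 0.55 to 1.11 above the others, and Cdkn2a was lower by 1.56 to 2.11.

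Of the creatine genes beside Ckm, Ckb, Gatm and Gamt were higher than in all other cells, and Slc6a8 and Ckmt2 were not. This set was chosen after its values were seen. Ckb averaged 556, 502, 631 and 619 CPM in the Ckm-positive cells against 155, 166, 239 and 238 CPM in all others, a log2 ratio of 1.36 to 1.81. Gamt averaged 272, 305, 234 and 237 CPM against 104, 113, 125 and 123 CPM, and Gatm 399.8, 393, 304 and 276 CPM against 118, 119, 113 and 122 CPM. Ckb and Gatm were at least 2 times higher in every library, and Gamt had log2 ratios of 0.88 to 1.39, short of 2 times in the aged libraries. The transporter Slc6a8 did not follow, at 40.7, 40.7, 39 and 39.9 CPM against 50.7, 54.7, 37.3 and 40.4 CPM, and Ckmt2 stayed at 6.12 to 10.5 CPM, resting on 61, 50, 121 and 185 UMIs. Ckb rests on 3502, 2574, 12917 and 18861 UMIs, Gamt on 1701, 1602, 4722 and 7517, Gatm on 2575, 2047, 6152 and 8700 and Ckm itself on 1781, 1536, 6998 and 11865.

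Muscle and general forms of energy enzymes did not split cleanly. Of 14 muscle forms 10 were higher than in the other cells (20.3% of all genes were) and none by 2 times, with Eno3 (muscle enolase) at ratios of 0.90 to 1.15. Of 12 general forms 5 were higher and 6 lower (58.4% of all genes were lower), and Ckb alone was higher by 2 times. Adss, the general form of an enzyme of purine synthesis, was lower by 2 times.

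**Figure D3:**
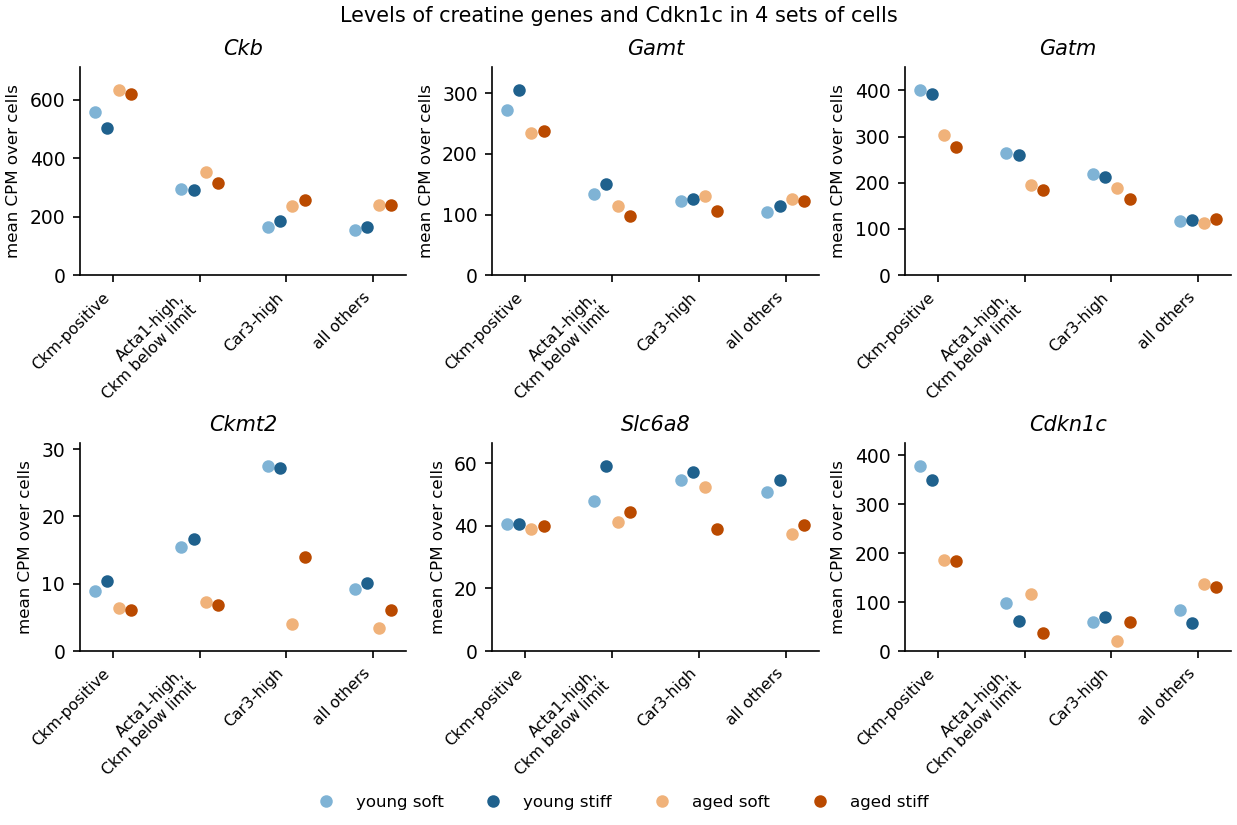
Mean CPM over cells (y axes) of 5 creatine genes and Cdkn1c in 4 sets of cells (x axis), 1 point per library. Ckb, Gamt and Gatm lie highest in the Ckm-positive cells of every library, and Ckmt2 and Slc6a8 do not.

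A further comparison was with cells of high skeletal actin (Acta1 of at least 13, Car3 below 8) and Ckm below the limit. The comparison was added after the values were seen and covers 211, 258, 323 and 413 cells, with a median depth of 40767, 32294, 36380 and 39181 UMIs. Here 15 genes were at least 1.5 times higher in the Ckm-positive cells of every library (0.313% of 4793) and 26 at least 1.5 times lower (0.542%), and 22 and 23 with median-of-ratios scaling. Acta1 itself differed by 0.16 to 0.36.

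Sct, Gamt and Ckb were among the higher genes. Gamt averaged 134, 151, 113 and 97.4 CPM in the Acta1-high cells, 0.99 to 1.24 below the Ckm-positive ones on the log2 scale. Ckb averaged 295, 292, 352 and 313 CPM there, 0.77 to 0.97 below, and Gatm ratios were 0.57 to 0.63, short of 1.5 times in 1 library. Slc6a8 and Ckmt2 had ratios of -0.49 to -0.07 and -0.55 to -0.10. Sct, at 879, 816, 347 and 362 CPM in the Acta1-high cells, had ratios of 1.10 to 1.66, and Vim, the intermediate filament vimentin of immature muscle cells, of 0.76 to 1.06. Nectin3, a cell adhesion protein, averaged 87.7, 83.1, 37.2 and 36.5 CPM against 46.8, 33, 21.5 and 16.6 CPM. C1qtnf3, a secreted C1q-like protein, Fbxl22, Cnr1 (a cannabinoid receptor) and Rpl22l1 (a ribosomal protein paralog) were higher as well, with ratios between 0.63 and 1.18. Rpl22l1 is partly shared in sequence.

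Cdkn1c, the imprinted CDK inhibitor p57, was higher on average but in few cells. Its mean was 378, 349.7, 186 and 184 CPM against 98.6, 61.8, 116 and 36.8 CPM in Acta1-high cells. A UMI was seen in 42.7%, 40.4%, 33.1% and 28.6% of Ckm-positive cells, and the median cell had none in any library. The 90th percentile over cells lay at 1524, 987, 390.4 and 308 CPM.

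Myl2, Mb, Fabp3, Xirp2 and stretch genes were lower than in the Acta1-high cells. Myl2, the slow and cardiac regulatory myosin light chain, averaged 7.79, 11.4, 9.75 and 12.8 CPM against 124, 121, 37.7 and 36.1 CPM. Mb, myoglobin, averaged 2918, 3321, 4254 and 4741 CPM against 5885, 6425, 7473 and 7847 CPM, and Fabp3, a fatty acid carrier, had ratios of -1.18 to -0.67. The gap in Myl2 was larger in the young libraries, and that in Mb was of like size in all 4. Xirp2, a protein of the intercalated disc and Z-disc, averaged 89.1, 132, 96.1 and 109 CPM against 259.9, 254, 225 and 282 CPM. All 6 measured genes of the ankyrin repeat and stretch list were lower, 3 of them by 1.5 times: Ankrd2, Ankrd23 and Fhl1. Over all genes 34.7% were lower in every library and 0.542% by 1.5 times. Ankrd23 averaged 52.7, 59.6, 178 and 158 CPM against 159, 165, 320.4 and 327 CPM, and its sequence is largely shared with another gene, so its level is uncertain.

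Casq1, Tpm3 and Hspb7, too, were lower than in Acta1-high cells, with ratios of -1.54 to -0.65, -1.56 to -0.71 and -1.19 to -0.70. Igfn1 (a muscle immunoglobulin-domain protein), Aif1l, Prkcq (a T cell and muscle kinase), Eda2r, Gpnmb and Fbxo40 (a muscle F-box protein) completed the lowest genes. By list, 8 of 14 muscle energy enzymes, 17 of 27 Z-disc genes and 10 of 24 triad genes were lower in all libraries, against 34.7% of all measured genes. The lists' medians were -0.41 to -0.23, -0.20 to -0.11 and -0.11 to -0.04, and -0.06 to -0.02 over all genes. Of 12 mitochondrially encoded genes 7 were higher in every library and none lower, against 22.2% of all genes higher, with none at 1.5 times.

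**Figure D4:**
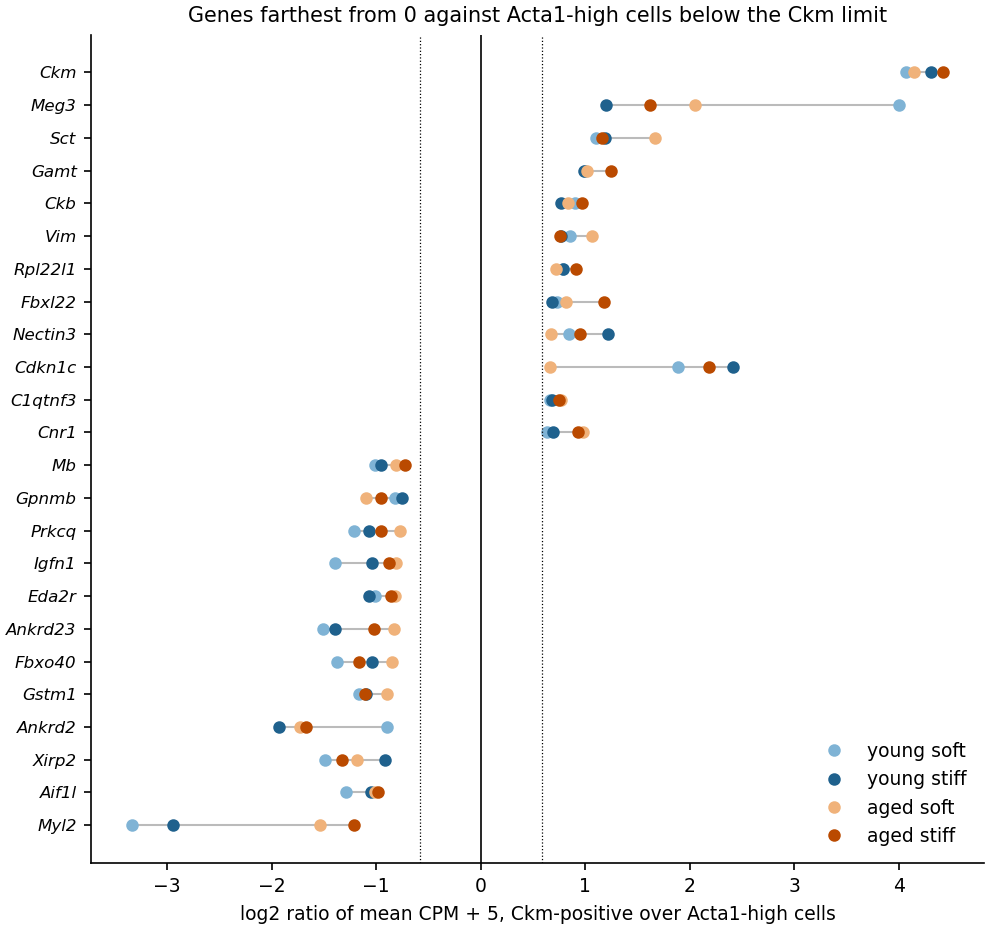
Log2 ratio of mean CPM + 5 in Ckm-positive over Acta1-high cells below the Ckm limit (x axis) for the genes farthest from 0 (y axis), 1 point per library. Gamt lies at 0.99 to 1.24 and Ckb at 0.77 to 0.97, and Myl2 at -3.34 to -1.21.

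Against Mymx-high cells below the Ckm limit (47, 54, 82 and 102 cells) few genes passed 2 times. Ckm alone was at least 2 times higher in every library (0.0208% of 4802), and Stmn1 and Mymx at least 2 times lower (0.0416%). The Mymx and Ckm limits were part of the choice of cells. At 1.5 times 8 genes were higher and 10 lower. Stmn1, partly shared in sequence, averaged 80.6, 76.5, 51.7 and 48.9 CPM in the Mymx-high cells. Myot (myotilin, a Z-disc protein) averaged 44.6, 45, 27 and 29.6 CPM in Ckm-positive against 10.5, 14.2, 12.9 and 10.2 CPM in Mymx-high cells. Apobec2, a muscle deaminase-like protein, averaged 239.6, 274, 179 and 181 CPM against 116, 122, 100.5 and 92.7 CPM. Both passed 1.5 times in every library but not 2 times, with lowest log2 ratios of 0.83 for Myot and 0.80 for Apobec2. These ratios include the pseudocount, which understates low genes such as Myot. Gamt was higher by 0.62 to 1.17. Rgs16, a regulator of G protein signalling, stood at 22.9, 17.5, 9.64 and 9.93 CPM against 46.7, 33.4, 29.6 and 23.5 CPM. So few cells limit what this comparison can show.

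Car3-high cells, the other differentiated set, differed more. Of 4914 genes 45 were at least 1.5 times higher in the Ckm-positive cells of every library (0.916%) and 75 lower (1.53%), and 58 and 59 with median-of-ratios scaling. Ckb averaged 166, 186, 237 and 256 CPM and Gamt 123, 125, 129.8 and 106 CPM in the Car3-high cells, so both were 0.83 to 1.72 higher in the Ckm-positive ones. Mymx averaged 59.2, 61.6, 106 and 87.9 CPM in them, 1.02 to 1.25 below. Actc1, the cardiac actin of immature muscle, was 0.65 to 1.26 higher in the Ckm-positive cells. Car3, fixed by the rule, stood at 29.3, 34, 22.1 and 20.2 CPM against 1853, 1618, 1012 and 893 CPM, and 32.7%, 33.8%, 26.9% and 29.2% of Ckm-positive cells had a Car3 UMI. Fhl1, a LIM protein that binds titin, averaged 254, 227, 308 and 321 CPM against 609, 650.1, 768 and 742 CPM. Of 14 muscle energy enzymes 10 were lower, Mb, Cox8b and Cox7a1 by 1.5 times, and all 3 measured Ndrg genes were lower, against 37.2% of all genes lower in every library. The Ckm-positive cells thus had higher Ckb, Gamt, Mymx and Actc1 and lower Fhl1, Mb and Cox8b than the Car3-high cells in all 4 libraries.

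The Ckm level within the gate was low and ran over a wide range. The median Ckm-positive cell had 10, 7, 11 and 12 Ckm UMIs and the highest 47, 52, 111 and 125, and 4, 10, 30 and 20 cells passed with 1 or 2 UMIs. The lowest cells inside lay at 6.04, 6.01, 6.01 and 6.01 and the highest below the limit at 5.99 in each library on the log2(CPM + 1) scale. Asking for 3 UMIs left shares of 10.7%, 9.53%, 32.9% and 38.3%. Myog, Mymk and Acta1 were seen in at least 99.4% of cells in every library, whereas Casq1 was seen in 52.0%, 45.7%, 78.0% and 85.4%. The spread from cell to cell was correspondingly small for Mymk, with a coefficient of variation of 0.329 to 0.376, and large for Casq1, at 0.985 to 1.92.

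Cells with Ckm of at least 8 (65, 51, 235 and 365) were set against those from 6 to 8 (85, 100, 233 and 321). Of 4629 genes only Ckm was 1.5 times higher in every library (0.0216%), which the cut on Ckm fixes, and none was 1.5 times lower (0%). On the higher side stood again Gamt, with log2 ratios of 0.39 to 0.66, and Ckb, with 0.28 to 0.72. Beside them stood Apobec2 (0.33 to 0.74) and Myh4, the fast IIb myosin, partly shared in sequence (0.26 to 0.85). On the lower side stood Gpx3, a secreted glutathione peroxidase (-1.41 to -0.30), the muscle cytochrome oxidase subunit Cox8b (-0.62 to -0.41), Hspb7 (-0.42 to -0.38) and Igfn1 (-0.78 to -0.36). Acta1 ratios were 0.24 to 0.30 and Tcap ratios -0.43 to -0.15, so Hspb7 and Tcap ran against Ckm in all 4 libraries inside the gate.

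Substrate stiffness moved few genes. Among 5260 genes measured in young cells, the stiff substrate had 8 genes (0.152%) higher by 1.5 times or more and 15 (0.285%) lower. Among 5010 in aged cells it had 7 (0.14%) and 2 (0.0399%). None reached 1.5 times in the same direction at both ages, higher (0%) or lower (0%), of 4764. Leaving out the highest cell of each gene reduces the 8 to 3 and the 2 to 1.

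The mean of Casq1 was higher on stiff at both ages. It averaged 156 CPM on soft and 278 on stiff in young cells, a ratio of summed UMIs of 1.66 (exact interval 1.54 to 1.80), and 559 and 671 CPM in aged cells, a ratio of 1.24 (1.21 to 1.27). These intervals count UMIs and leave out the spread between cells, which was large for Casq1. In young cells it was seen in 52.0% of cells on soft and 45.7% on stiff, so the higher mean came with no higher share. The median young cell had 21.7 CPM on soft and 0 on stiff, and the median aged cell 339 and 505 CPM. Tpm3, a slow tropomyosin partly shared in sequence, stood at 187 and 241 CPM in young and 723 and 855 CPM in aged cells. The mean of Tpm3, too, was higher on stiff at both ages.

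Of the genes lower on stiff in young cells, Fst (follistatin, an inhibitor of myostatin) stood at 350.4 and 211 CPM in young and 105 and 101 CPM in aged cells. Ctgf, a YAP target, stood at 39.5 and 14.3 CPM in young cells, where 1 cell held 40.0% of it on soft and 46.7% on stiff. Spp1 (osteopontin) stood at 244 and 141 CPM in young and 445 and 480.1 CPM in aged cells. In aged cells Tagln (transgelin, a smooth muscle actin binder) stood at 67.4 on soft and 35.6 CPM on stiff, and Sln (sarcolipin, an inhibitor of the calcium pump) at 94 and 134 CPM. Phkg1, a phosphorylase kinase subunit, was higher on stiff in young cells by a log2 ratio of 1.39, with 39.4% of it in 1 cell. Ctgf and Phkg1 thus rest on few cells.

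By list, 14 of 14 measured muscle energy enzymes were higher on stiff in aged cells and 14 of 16 in young cells, with medians of 0.11 and 0.18. Over all genes 41.0% were higher in aged and 40.5% in young cells, with medians of -0.02 and -0.04. Each ratio was small: Cox6a2 (a muscle cytochrome oxidase subunit) was higher by 0.31 in young and 0.21 in aged cells, and Mb by 0.19 and 0.16. The medians of the fast sarcomere genes were 0.06 in young and 0.10 in aged cells.

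Age moved many more. On soft 240 of 5396 genes were at least 1.5 times higher in aged Ckm-positive cells (4.45%) and 497 lower (9.21%), and on stiff 256 (4.82%) and 475 (8.94%) of 5311. With median-of-ratios scaling, which shifts the ratios by 0.10 and 0.08, the counts were 351 and 342 on soft and 352 and 347 on stiff. Of 5201 genes measured on both substrates, 173 were higher (3.33%) and 316 lower (6.08%) on both. The aged libraries of the gate also hold more cells, and animals and age cannot be told apart with 1 library per group.

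Gpx3, the secreted glutathione peroxidase, averaged 136 and 197 CPM in young and 869.7 and 988 CPM in aged cells. By UMIs it was 6.14 (5.75 to 6.58) times higher on soft and 5.54 (5.19 to 5.91) times on stiff. These intervals, too, leave out the spread between cells. Fgf21, a metabolic hormone that muscle secretes under stress, averaged 51 and 67.7 CPM in young and 263 and 274 CPM in aged cells. No young library reached the level of an aged one for either gene. Ndrg2, a stress-responsive member of the N-myc downstream regulated family, averaged 37.8 and 43.9 CPM against 199.9 and 214 CPM. All 3 measured Ndrg genes were at least 1.5 times higher on both substrates, against 3.33% of all genes. R3hdml and Olfml3, a secreted matrix protein, averaged 2.16 to 2.90 and 1.78 to 2.04 CPM in young and 34 to 35.5 and 28.3 to 30.2 CPM in aged cells. Scd1 (a fatty acid desaturase) and Ifitm3 (an interferon-induced membrane protein), both partly shared in sequence, were higher by log2 ratios of 1.81 to 2.06.

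The fast sarcomere was higher with age as well. Of 14 measured genes 7 were at least 1.5 times higher on each substrate, against 4.45% of all genes on soft and 4.82% on stiff. Among them were Tnnt3 at 3806, 3897, 6147 and 6407 CPM and Tnni2 at 747, 779, 1199 and 1318 CPM, which code for fast troponins. Outside the fast genes Tpm3, the slow tropomyosin partly shared in sequence, was higher by log2 ratios of 1.93 and 1.80. Of 12 developmental, slow and cardiac genes 7 were higher on each substrate, 2 of them by 1.5 times on soft and 3 on stiff. Over all genes 39.9% on soft and 42.0% on stiff were higher. Tnnt1, the slow troponin T, stood at 2814, 3137, 4564 and 4817 CPM. In the same list Myh7, the slow myosin heavy chain, stood at 199, 225, 84.7 and 99.4 CPM, and Actc1 at 4114, 4401, 2703 and 2594 CPM. Both were lower by at least 1.5 times on each substrate. Myh3 and Myh8, the embryonic and perinatal myosins, differed by 0.14 and 0.16 and by -0.47 and -0.22.

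Of the proposed markers, Casq1 had log2 ratios of aged over young of 1.81 and 1.26. Those of Ndrg4 were 1.68 and 1.52, Hspb7 1.10 and 1.14, Tcap 1.05 and 0.99 and Ckm 0.32 and 0.35. The same genes were higher with age among the Acta1-high cells, at 464 and 548 CPM in young and 919 and 1058 CPM in aged cells for Casq1. Of the energy genes, Pfkm (muscle phosphofructokinase), Cox6a2, Cox7a1, Adssl1 (muscle adenylosuccinate synthase) and Gys1 (muscle glycogen synthase) were the 5 muscle forms 1.5 times higher on each substrate, of 15 measured on soft and 16 on stiff. Over all genes 4.45% on soft and 4.82% on stiff were 1.5 times higher. The muscle form Phkg1 was lower on stiff by 1.31 on the log2 scale. Of the general forms Pgam1, Pfkl and Slc2a1 were at least 1.5 times lower on each substrate (9.21% and 8.94% of all genes were). Ldhb, which shares sequence with another gene, was higher by 0.65 and 0.62. Among the creatine genes no member reached 1.5 times: Ckb differed by 0.18 and 0.30, Gamt by -0.21 and -0.35 and Gatm by -0.39 and -0.50.

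Among the genes lower with age was Sox11. Sox11, a transcription factor of embryonic tissues, averaged 311 and 331 CPM in young and 105 and 87.9 CPM in aged cells. Sln averaged 336 and 307 against 94 and 134 CPM, Fst 350.4 and 211 against 105 and 101 CPM, and Tgfb2, a TGF-beta ligand, 297 and 315 against 115 and 94 CPM. For each of these genes both aged libraries lay below both young ones. Myog was lower by 0.41 and 0.74 on the log2 scale and Cdkn1c by 1.00 and 0.91, while Mymx was higher by 0.84 and 0.72. Vim averaged 867 and 768 CPM in young and 407 and 319 CPM in aged cells, and S100a10, an annexin partner, 292 and 252 against 96.7 and 65.2 CPM. Of the YAP target and matrix genes 3 of 8 on soft and 5 of 7 on stiff were at least 1.5 times lower, and 1 on each was higher. Over all genes 9.21% on soft and 8.94% on stiff were lower, and 4.45% and 4.82% higher.

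Outside the gate most of these genes had ratios of the same sign. For the 173 higher genes 172 did so among Acta1-high, 167 among Car3-high and 164 among all other cells. For the 316 lower genes the numbers were 312, 301 and 302. Of the 173 higher genes 114 (65.9%) were at least 1.5 times higher with age on both substrates among Acta1-high cells, 58 (33.5%) among Car3-high cells and 98 (56.6%) among all other cells. Of the 316 lower genes 191 (60.4%), 109 (34.5%) and 70 (22.2%) were lower in these sets. The median ratios of the 173 genes were 0.85 and 0.87 in the Ckm-positive cells, 0.79 and 0.77 in the Acta1-high, 0.62 and 0.54 in the Car3-high and 0.66 and 0.74 in all other cells. Those of the 316 genes were -0.82 and -0.84, -0.78 and -0.69, -0.59 and -0.56, and -0.44 and -0.45 in the same order. These shares are descriptions, since the genes were picked in the Ckm-positive cells. The share of all genes that pass in each other set is not given here. All other cells include the Acta1-high and Car3-high cells, so these sets overlap.

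**Figure D5:**
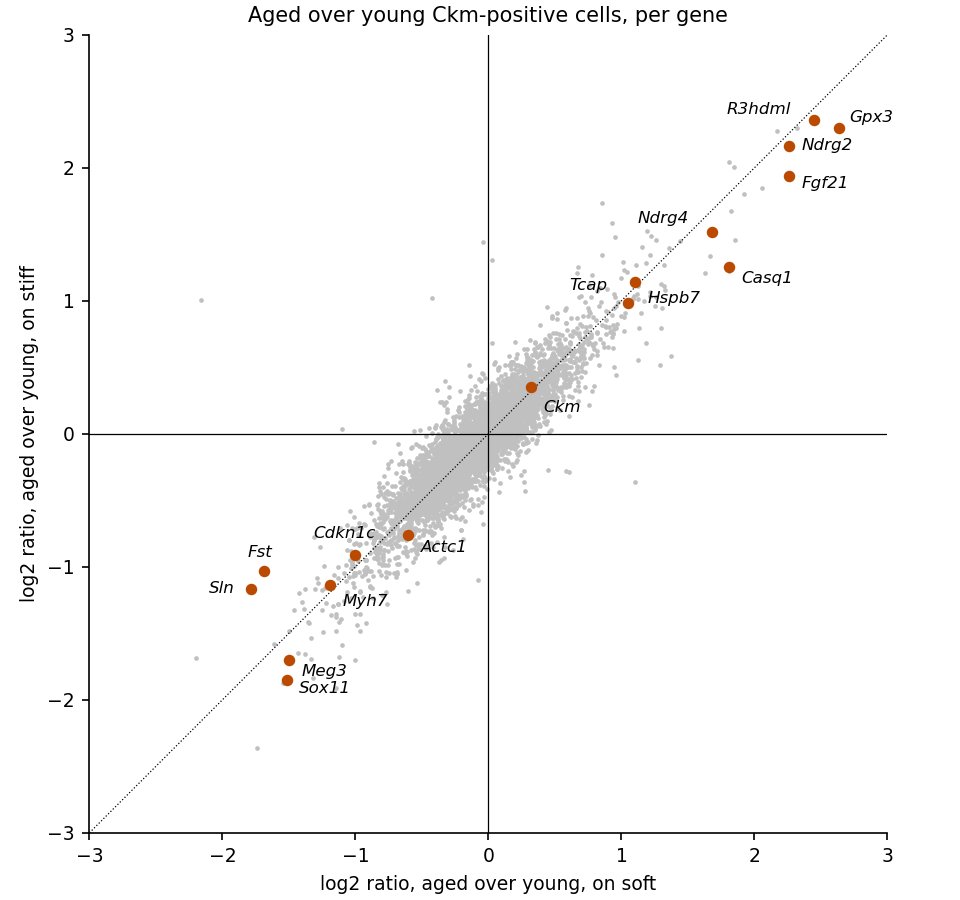
Log2 ratio of mean CPM + 5 in aged over young Ckm-positive cells on soft (x axis) and on stiff substrate (y axis), 1 point per gene, with named genes in orange and a dotted line of equal ratios. Gpx3 lies at 2.63 and 2.30 and Sox11 at -1.52 and -1.85.

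The series' title names RNA decay, so decay genes were counted in these cells. Of 23 measured deadenylation and decapping genes 18 were lower than in all other cells in every library, as were 58.4% of all measured genes, and Cnot6, a deadenylase, by 2 times, with list medians of -0.33 to -0.30. All genes together had medians of -0.19 to -0.16. Nonsense-mediated decay and exosome genes were lower in 11 of 16 cases, near that share, none by 2 times, and AU-rich element binding proteins in 13 of 14, Zfp36l2, a decay-promoting zinc finger protein, by 2.57 to 3.26. With age 1 gene of each of the first lists was at least 1.5 times lower on both substrates and none higher. These were Cnot6, of 22 measured, and Exosc2 (an exosome subunit), of 14 measured. That is near the share over all genes, 6.08%, and the AU-rich list had none. No gene of the 3 lists reached 1.5 times with stiffness at either age. Over all genes only 0.0399% to 0.285% did so in 1 direction at 1 age.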

How the data were processed

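RNA of single cells was measured in 4 libraries, 1 per group. Cell Ranger 6.1.2 and Partek are named per the submitters' processing notes, and the sources used here give no build, annotation or filters. The deposited tables hold log2(CPM + 1) per cell over 13772 genes, with the unit read from the values. UMI counts were recovered from the deposited steps: 99.94% to 99.95% of values above 0 came out whole within 0.05. Because values and not counts were deposited, means over cells of CPM were compared. A cell needed 500 genes and no more than 20% mitochondrial counts (5910 cells passed, 3 did not). Doublets were not removed.

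Log2 ratios used a pseudocount of 5, which understates low genes, and a gene was measured if its mean reached 20 CPM in one of the groups compared. A gene that reached 20 CPM in 1 group only could therefore only come out higher in that group. Genes with the same direction in all 4 libraries were called at 2 times against other and Mymx-high cells, and at 1.5 times elsewhere. Mymx-high cells have Mymx of at least 8. The Acta1-high and Car3-high comparisons and the creatine genes were chosen after seeing the data, and the members, the limits and all gene lists with earlier results of these data known. Named genes are the markers, the 12 highest and 12 lowest of each comparison of cells, the 8 of each comparison inside the gate and of the Ckm bins, the 6 shared between substrates or ages, and up to 4 of each list, without unnamed gene models. Genes with other values beside these are list members given for comparison. 1 more gene chosen this way is not reported here. A gene is said to share sequence where at least 20% of the 30-base words of the last 500 transcript bases occur in another gene. Of 396 list genes 12 were not found in the tables used here. No adipocyte or red blood cell marker was among the genes used here. Python 3.11.15, numpy 2.4.6, scipy 1.17.1, pandas 2.3.3 and matplotlib 3.10.9 were used, and the comparison was tested on simulated data.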

Additional observations from a re-analysis of the deposited data

Results flagged for a closer look

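The stiffness response of Dqx1, an RNA helicase-like protein, ran in opposite directions at the 2 ages. Young Ckm-positive cells averaged 150.1 CPM (soft) and 21.1 CPM (stiff), and aged ones 29.7 and 47.5 CPM, a difference of the log2 ratios of 3.17. A UMI was seen in 16.7%, 7.95%, 5.13% and 10.1% of cells, and 1 cell held 28.1%, 34.9%, 42.5% and 18.8% of the summed level. Gstp1, a glutathione transferase that shares 42.4% of its sequence words with another gene, averaged 37.5 and 18.8 CPM in young and 36.3 and 59.5 CPM in aged cells, a difference of 1.48. It was spread over 45.7% to 85.3% of cells. Its level moved in the same way among all other cells, at 98, 49.7, 64 and 114 CPM. With 1 library per group neither difference was tested.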

How the results depend on the processing

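Of the counts and shares under the alternatives, 190 stayed within 1.5 times of the value reported (for shares, within its interval) and 72 moved, and no value reversed. Shares are in the order of libraries used above, and counts are of genes higher and lower. With a Ckm limit of 5 the shares were 14.1%, 13.9%, 42.8% and 46.7%, and the genes higher on stiff in young cells numbered 3. With a limit of 7 they were 8.24%, 6.90%, 26.6% and 31.4%, with 21 higher and 36 lower on stiff in young and 7 lower in aged cells. Without the Car3 limit they were 15.3%, 15.0%, 37.8% and 43.2%, with 4 lower against Mymx-high cells and 1 higher on stiff in young cells. Thinned, they were 13.3%, 12.3%, 39.9% and 43.6%, with 4 lower against Mymx-high cells, 26 higher against Car3-high cells and 4 lower on stiff in aged cells. A pseudocount of 1 gave 2 higher against Mymx-high cells, and 30 lower on stiff in young and 6 in aged cells. A pseudocount of 20 gave 17 and 191 against other cells, 16 lower against Acta1-high cells, 22 and 35 against Car3-high cells, 4 and 8 on stiff in young, 3 and 1 in aged cells, and with age 125 and 244 on soft and 139 and 238 on stiff. No minimum gave 559 lower against other cells, 6 lower against Mymx-high and 115 lower against Car3-high cells, 31 and 62 on stiff in young, 13 and 14 in aged cells, and 409 and 474 higher with age on soft and stiff. A minimum of 50 CPM gave 150 lower against other, 1 lower against Mymx-high, 14 lower against Acta1-high cells, 27 and 39 against Car3-high cells, 1 and 5 on stiff in young, 4 and 1 in aged cells, and with age 136 and 287 on soft and 141 and 272 on stiff. Summed UMI counts gave 13 higher against other cells, 26 higher against Car3-high cells and 6 lower on stiff in aged cells. Median-of-ratios scaling gave 71 higher against other cells, and a Mymx limit of 6 gave 22 lower against Mymx-high cells. Of the alternatives chosen after seeing the data, leaving out the highest cell of each gene gave 2 higher against Mymx-high cells, 3 higher on stiff in young and 1 lower in aged cells, and asking for 3 Ckm UMIs gave 4 lower on stiff in aged cells. The pseudocount and minimum settings change which low genes can pass. For the others the cause was not tested. Of single genes, 2709 values stayed close and 423 moved. No paired analysis was possible because each group has 1 library. Leaving out a replicate was not possible for the same reason.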

Other observations

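Small heat shock proteins did not move as 1 group in the Ckm-positive cells. Of 11 chaperone genes 7 were higher than in all other cells in every library and 3 lower, against 20.3% and 58.4% of all genes measured, and none reached 2 times. Hspb2 and Hspb3 had log2 ratios of 0.75 to 1.20 and 0.91 to 1.14, Cryab of 0.29 to 0.86 and Hspb1 of 0.39 to 0.73, and Hspb6 of -0.77 to -0.08. With age Hspb6 and Hspb7 were at least 1.5 times higher on both substrates and Smyd1, a myosin chaperone partner, and Hsp90aa1 at least 1.5 times lower. Hsp90aa1 averaged 820.5, 789, 475 and 429 CPM.

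Muscle atrophy genes were higher than in the other cells in 4 of 6 cases, against 20.3% of all genes, and none reached 2 times. Trim63, a sarcomere ubiquitin ligase, averaged 82.1, 80.1, 81.1 and 84.2 CPM, with ratios of 0.69 to 1.28. Its level was nearly equal in the 4 libraries. Fbxo32, the other atrophy ligase, stood at 31.5, 34.7, 29.5 and 22.4 CPM, with ratios of -0.30 to 0.21.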
